A study of Mus musculus with 4 samples.

Results

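Secreted cytokines and colony-stimulating factors of pancreatic cancer cells were followed in 4 mouse cell lines, through 10 genes of the 19938 measured. The members were chosen by name, with earlier results of these data known: the gp130 cytokines Il6, Lif and Il11, the interleukin-1 family genes Il1a, Il1b, Il18 and Il33, and Csf1, Csf2 and Tslp. All 10 were found, each with 1 transcript cluster, the group of probes that stands for a gene on the array. The TPC lines TPC18645 and TPC20223 carry the genotype Ela-TGFa, Ptg1a+/CRE, Trp53fl/fl, and the TPAC lines K459 and TCPA18654 carry p65fl/fl in addition. All lines thus share the TGF-α transgene, which the elastase promoter drives in the pancreas, and the pancreas-specific loss of p53, and TPAC differs by the loss of RelA/p65, a subunit of NF-κB. Cells were grown out of digested pancreatic tumors in medium with serum, were untreated, and were measured on 1 Affymetrix Mouse Gene 1.0 ST array per line. The sources used here give no age of the mice, and do not state that each line was derived from a mouse of its own, so p-values measure only the spread between these lines. Values are log2 signals, on which a difference of 1 is a 2-fold difference. Rela, which encodes p65, had 11.12 in TPC18645 and 10.70 in TPC20223, and 10.82 in K459 and 11.10 in TCPA18654. The table gives 1 value for the whole gene and none for the floxed exons, so this does not check the genotype labels.

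Cytokines of the gp130 group act through receptors that share the signal chain gp130 and activate JAK kinases and STAT3. Interleukin-1 family members signal through receptors with a Toll-like domain to NF-κB, and several of them are made as precursors without a secretion signal. Colony-stimulating factors direct the growth and differentiation of macrophages and granulocytes, and pancreatic cancer cells are known to release several of these factors into their surroundings. Many of these genes are textbook NF-κB targets.

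The arrays had no detection call. A gene whose mean signal did not exceed 6.96, the 40th percentile, is called dim here, and the size of its differences is not exact. As another mark, 95% of 1027 olfactory receptor genes had mean signals up to 6.38. The mean signals of 6 members were dim (Il6, Il11, Il1a, Il1b, Csf2 and Tslp) and those of 4 were not (Lif, Il18, Il33 and Csf1). Of the markers of epithelial cells 9 of 10 were measured, none dim. Their mean log2 signal was lowest in TPC20223, at 7.25, where TPC18645 had 10.23, TCPA18654 10.36 and K459 11.51. Between the TPC lines 5 of these 9 differed at least 2-fold, all lower in TPC20223, against 11.3% of all genes. Between the TPAC lines 5 of the 9 did, all higher in K459, against 3.87% of all genes. Epcam had 6.82 in TPC18645 and 6.43 in TPC20223, and 9.77 in K459 and 7.37 in TCPA18654. The keratin gene Krt19 had 6.08 in TPC20223 and at least 11.74 elsewhere, whereas the duct gene Sox9 had 10.89 there and 10.14 to 11.56 elsewhere. Fibroblast markers averaged 9.32 in TPC20223 and 7.48 to 8.25 in the other lines, but not all went that way. Between the TPC lines 7 of 10 differed at least 2-fold, against 11.3% of all genes. Of these 7, Dcn alone was lower in TPC20223 (9.35, against 11.03 in TPC18645). Between the TPAC lines 5 of the 10 differed at least 2-fold, against 3.87% of all genes. K459 was the higher line in these 5 except for Dcn (8.57, against 10.99 in TCPA18654). Lum and Fap were dim. Leukocyte markers, which bear on genes that white blood cells also express, averaged 6.29 to 6.60 in TPC and 6.63 to 6.65 in TPAC lines. Of these 10, 8 were dim, among them the pan-leukocyte gene Ptprc (5.61 to 6.02) and the macrophage gene Adgre1 (5.13 to 5.23), whereas Cd14 and Cd68 were not. Between the TPC lines 4 of the 10 differed at least 2-fold, against 11.3% of all genes, and in both directions. Cd14 (9.66 in TPC18645, 6.66 in TPC20223) and Cd68 (8.60 and 6.66) were lower in TPC20223. Fcer1g (6.13 and 7.98) and Lyz2 (5.46 and 6.48), both dim in the mean, were higher there. In RNA of a whole culture, fewer cells of a type and less RNA per cell cannot be told apart.

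Because TPAC cells lack RelA/p65 by genotype, the promoters of the members were searched for the 10-letter NF-κB consensus on both strands, in 250 bases before each RefSeq gene start (GRCm38.p6). Windows were listed for 9 members (11 windows). A match was found upstream of Il6, Lif and Csf1, and 7.25% of all 32851 windows held one. On both strands again, AP-1 (TGANTCA) matched at Il6, Lif, Il11 and Il1a (6.75% of windows) and C/EBP (TTNNGNAA) at Il6, Il1a, Il1b, Il33 and Csf2 (36.8% of windows). STAT (TTCNNNGAA, 7.02% of windows) matched at 0 members. No match of a motif overlapped a match of another. A match is a description of the letters and not a bound site. The windows of the 3 genes with an NF-κB match, and of Il33, the member that differed most between lines, are printed 5′ to 3′ on the gene's strand. Capitals mark the NF-κB match, or in Il33 the C/EBP matches.
Il6, chr5:30012864-30013113, strand +: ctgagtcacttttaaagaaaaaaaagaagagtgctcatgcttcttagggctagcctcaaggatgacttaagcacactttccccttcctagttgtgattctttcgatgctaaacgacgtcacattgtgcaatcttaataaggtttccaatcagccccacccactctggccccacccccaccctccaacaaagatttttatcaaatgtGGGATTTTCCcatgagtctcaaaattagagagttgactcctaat
Lif, chr11:4257318-4257567, strand +: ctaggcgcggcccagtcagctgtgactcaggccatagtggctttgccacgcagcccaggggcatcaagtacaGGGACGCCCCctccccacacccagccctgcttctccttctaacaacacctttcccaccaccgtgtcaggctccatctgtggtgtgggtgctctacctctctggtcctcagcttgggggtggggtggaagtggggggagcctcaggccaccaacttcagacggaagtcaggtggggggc
Csf1, chr3:107760470-107760719, strand -: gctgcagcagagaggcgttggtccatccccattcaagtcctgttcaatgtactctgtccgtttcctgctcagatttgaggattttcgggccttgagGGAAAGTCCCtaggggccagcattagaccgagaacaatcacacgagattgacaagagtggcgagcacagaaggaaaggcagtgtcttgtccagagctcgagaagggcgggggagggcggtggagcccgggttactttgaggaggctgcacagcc
Il33, upstream start, chr19:29924863-29925112, strand +: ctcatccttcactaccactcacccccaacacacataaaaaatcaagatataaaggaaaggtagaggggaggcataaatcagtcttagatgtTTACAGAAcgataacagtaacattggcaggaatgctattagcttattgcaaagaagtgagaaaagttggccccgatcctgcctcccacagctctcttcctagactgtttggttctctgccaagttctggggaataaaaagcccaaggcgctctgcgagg
Il33, downstream start, chr19:29945540-29945789, strand +: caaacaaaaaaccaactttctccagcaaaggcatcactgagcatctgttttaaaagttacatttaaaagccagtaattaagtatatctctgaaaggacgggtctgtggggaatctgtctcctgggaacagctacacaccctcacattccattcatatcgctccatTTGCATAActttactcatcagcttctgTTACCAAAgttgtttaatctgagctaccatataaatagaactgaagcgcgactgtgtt
The NF-κB match lay at -44 to -35 from the gene start in Il6, at -178 to -169 in Lif and at -154 to -145 in Csf1.

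Among the gp130 cytokines, K459 had the highest signal of Il6 and TPC20223 the lowest of Lif. Il6, the interleukin that drives the acute phase response and STAT3 signalling, had log2 signals of 4.35 in TPC18645 and 4.68 in TPC20223, and 6.31 in K459 and 3.92 in TCPA18654. K459 thus lay 2.39 above TCPA18654, the other TPAC line, and 1.63 above the nearest line, yet even its signal was under the dim limit and under the olfactory receptor mark. The lowest and highest values were both in TPAC lines, so the genotypes overlapped. Lif, the leukemia inhibitory factor, had 8.70 in TPC18645 and 7.36 in TPC20223, and 8.32 in K459 and 8.62 in TCPA18654. TPC20223 was 0.96 to 1.34 below the other lines, which lay within 0.38 of each other, and the genotypes overlapped. Il11, which acts on stromal and blood-forming cells, had 6.39, 6.77, 6.87 and 6.77 in the same order of lines. All 4 values were dim, and their range of 0.48 was reached or passed by 40.7% of all genes.

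In the interleukin-1 family, Il33 had by far the widest range. Il33 encodes a nuclear cytokine that barrier cells release on damage. Its log2 signals were 11.26 in TPC18645 and 5.88 in TPC20223, and 11.15 in K459 and 11.29 in TCPA18654. The other 3 lines lay within 0.14 of each other, and TPC20223 was 5.27 to 5.41 lower, at a level under the dim limit. That value also lay under the olfactory receptor mark, so the size of each Il33 difference from TPC20223 is not exact. Only 55 genes, Il33 among them (0.276% of all), ranged as widely over the lines. The genotypes overlapped, since TPC18645 lay between the 2 TPAC lines.

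Il18, whose precursor is cleaved by caspase-1, varied in the same direction but less. It had 8.66 in TPC18645 and 7.91 in TPC20223, and 8.63 in K459 and 8.74 in TCPA18654. TPC20223 was 0.72 to 0.83 below the others, which were within 0.11. Il1a, the interleukin-1 alpha gene, had dim signals of 4.82, 4.63, 5.36 and 4.83 in the same order. Both TPAC values exceeded both TPC values, but TCPA18654 and TPC18645 were only 0.01 apart, and K459 stood 0.53 above TCPA18654. Il1b, the interleukin-1 beta gene known from activated macrophages, had 5.42, 5.40, 5.45 and 5.43, all dim. Its range of 0.05 was among the smallest on the array, with 99.6% of genes ranging at least as widely.

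Of the colony-stimulating factors, Csf1 was highest in TPC20223 and Csf2 lowest there. Csf1, the macrophage colony-stimulating factor, had log2 signals of 10.35 in TPC18645 and 11.07 in TPC20223, and 10.02 in K459 and 10.29 in TCPA18654. Both TPC lines lay above both TPAC lines. The nearest lines of the 2 genotypes were 0.06 apart, a gap smaller than the 0.72 between the TPC lines or the 0.27 between the TPAC lines. Csf2, the granulocyte-macrophage factor, had 6.67, 5.69, 6.38 and 6.71 in the same order. TPC20223 was 0.69 to 1.02 lower than the rest, on signals whose mean was dim. Tslp, an epithelial cytokine of allergic inflammation, had dim signals of 4.45, 5.01, 4.58 and 4.68, with the highest and the lowest in the 2 TPC lines.

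**Figure D1:**
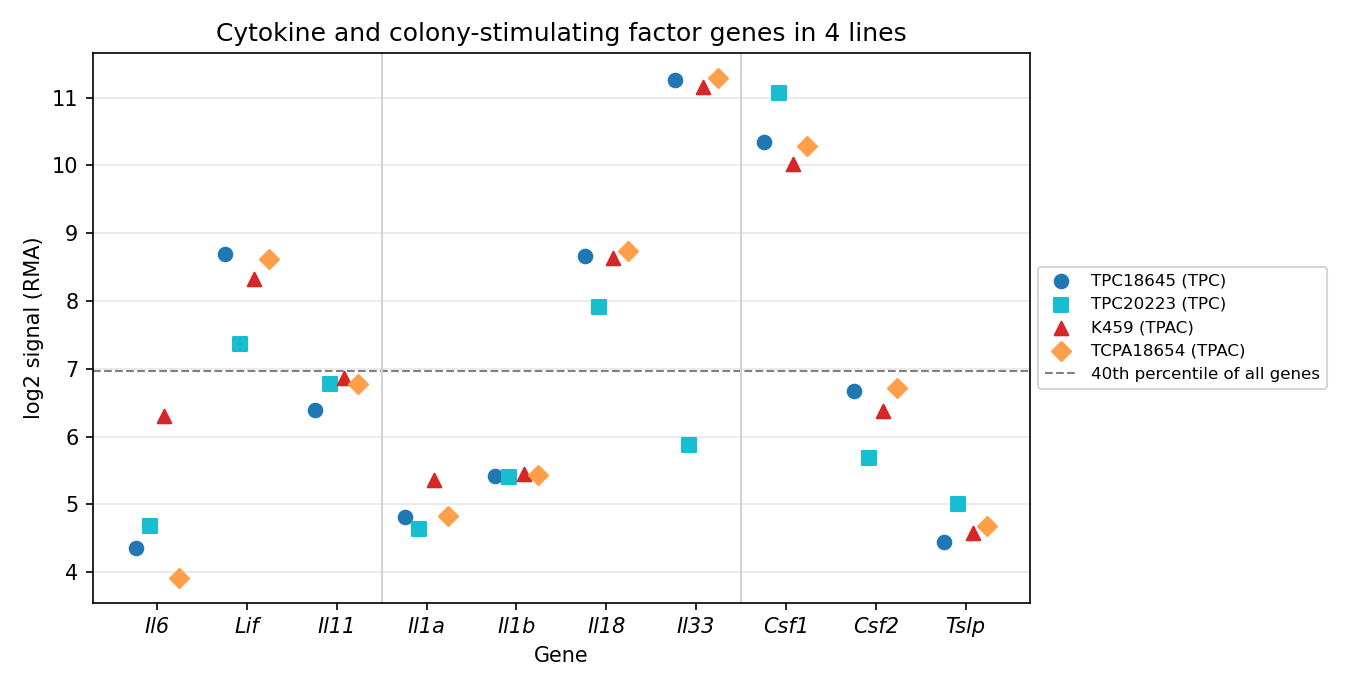
Log2 signal of each of the 10 genes in each line (points, 1 array per line), ordered as gp130 cytokines, interleukin-1 family, and Csf1, Csf2 and Tslp. The dashed line is the 40th percentile of mean signal. Il33 lies at 5.88 in TPC20223 and between 11.15 and 11.29 in the other lines, and Il6 reaches 6.31 in K459.

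The comparison of TPAC with TPC sets lines with the loss of RelA/p65 beside lines without it. With 2 lines per genotype, that loss cannot be told apart from other line differences, such as the low epithelial marker mean of TPC20223. None of the 10 genes passed limma's test (adjusted p of 0.989 to 0.995), and of 19938 genes 0 were called (0.0% of all), a call being a log2 difference of at least 0.58 in size whose adjusted p was at most 0.05. At an unadjusted p under 0.05, 0 members passed, against 0.782% of all genes, or 0.421% with the limit on the difference. The mean was higher in TPAC for 8 members and lower for 2, against 52.7% of all genes with a higher mean, and the median difference was 0.37 for the members and 0.015 for all genes. Without TPC20223 the median of the members was 0.0225, and without K459 it was 0.15. The lines of the genotypes did not overlap in 3 members (Il1a, Il1b and Csf1), against 27.0% of all genes, a share near the background.

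Il33 had the largest difference, with a mean of 11.22 ± 0.10 (SD, n = 2) in the TPAC lines against 8.57 ± 3.80 (SD, n = 2) in the TPC lines. The log2 difference of 2.65 had a 95% confidence interval of -2.98 to 8.28 (limma, adjusted p = 0.989). Without TPC20223 the difference was -0.04, and without TPC18645 it was 5.34 with an adjusted p of 0.0913 by limma, which then takes TPC20223 to vary like the TPAC lines. In TPC20223 the mean of the epithelial markers, given above, was low like Il33, whereas that of the fibroblast markers was high. The part of either in the Il33 difference was not tested. Csf1 differed by -0.56 (95% confidence interval -1.43 to 0.32), where the TPAC lines had 10.16 ± 0.19 (SD, n = 2) and the TPC lines 10.71 ± 0.51 (SD, n = 2). It was -0.20 without TPC20223. Il6 differed by 0.60 (-1.94 to 3.14), where the TPAC lines had 5.12 ± 1.69 (SD, n = 2) and the TPC lines 4.52 ± 0.23 (SD, n = 2). This value rested on K459: without that line it was -0.60, and without TCPA18654 it was 1.80.

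Lif, Il18, Il1a and Csf2 differed by 0.44, 0.40, 0.37 and 0.36, Il11 by 0.24, Il1b by 0.03 and Tslp by -0.10. The intervals of all 10 included 0. Without TPC20223 the difference of Il18 was 0.025, that of Lif -0.23 and that of Csf2 -0.13. Il1a was 0.11 without K459 and Il11 was 0.05 without TPC18645. Without TPC18645, the comparison of TPAC with TPC20223 alone, 5 of 10 members had an unadjusted p under 0.05 by limma, against 16.8% of all genes. These were Il33, Lif (1.11), Il18 (0.78), Csf2 (0.86) and Csf1 (-0.92), and none passed after adjustment. Without TCPA18654 only Il6 had such a p, against 1.98% of all genes, and without TPC20223 or without K459 no member did, against 0.928% and 0.0953%. For a single gene, 2 lines against 2 leave p = 0.333 as the smallest value of a two-sided exact permutation test. The 3 genes with an NF-κB match had differences of both signs, positive in Il6 and Lif and negative in Csf1, and none was called.

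**Figure D2:**
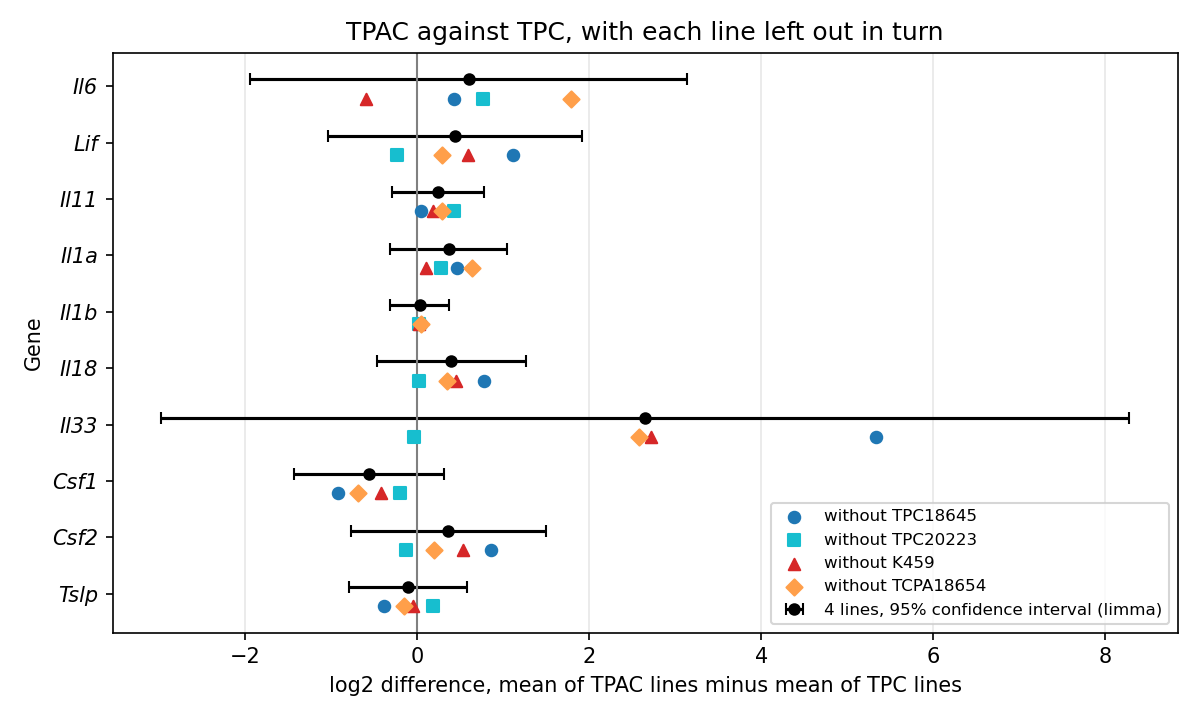
Log2 difference between the mean of the TPAC and of the TPC lines for each gene, with limma's 95% confidence interval (black, n = 2 lines each), and the difference with each line left out (colored points). All intervals include 0, and Il33 moves from 2.65 to -0.04 without TPC20223.

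Most members had like signals in TPC18645 and TCPA18654, lines of different genotype, while TPC20223 differed from the rest mainly in Il33 and K459 in Il6. Each pair of lines was compared by fold alone, as there is 1 array per line. Between TCPA18654 and TPC18645, 0 of 10 members differed at least 2-fold (0.271% of all genes did), 7 were within 0.1 on the log2 scale (45.4% of all genes), and Il6 differed most, by 0.43 in size. Between TPC20223 and TPC18645 2 members differed at least 2-fold, Il33 (-5.38, against a signal not above the olfactory receptor mark in TPC20223) and Lif (-1.34), against 11.3% of all genes. Against TPC20223, K459 differed in Il6 (1.63), Il33 (5.27) and Csf1 (-1.05), and TCPA18654 in Lif (1.26), Il33 (5.41) and Csf2 (1.02), with 10.9% of all genes in each pair. K459 differed from TCPA18654 and from TPC18645 only in Il6 (2.39 and 1.96), against 3.87% and 4.34% of all genes, and Il6 was dim. The median size of a member's difference was 0.64 between the TPC lines and 0.21 between the TPAC lines, where that of all genes was 0.25 and 0.17.

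The genes whose profile over the 4 lines was nearest to that of Il33, by Euclidean distance between profiles centered on each gene's mean, were Efemp1, Cdh1 and Tspan8. Efemp1, a matrix glycoprotein gene, lay at a distance of 0.20 and had log2 signals of 12.77 in TPC18645 and 7.31 in TPC20223, and 12.39 in K459 and 12.67 in TCPA18654. Cdh1, the E-cadherin gene, lay at 0.29 with 12.57, 6.96, 12.62 and 12.68. Tspan8, a tetraspanin gene, lay at 0.38 with 10.17, 4.84, 10.54 and 10.28. All 3 were lowest in TPC20223, as Il33 was. Nearest to Il6 were the RNA-binding protein gene Celf4 (distance 0.28), the urea transporter gene Slc14a1 (0.29) and Rac3 (0.32), each highest in K459, with 9.35, 8.63 and 9.75. These distances describe 4 arrays and carry no test.

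**Figure D3:**
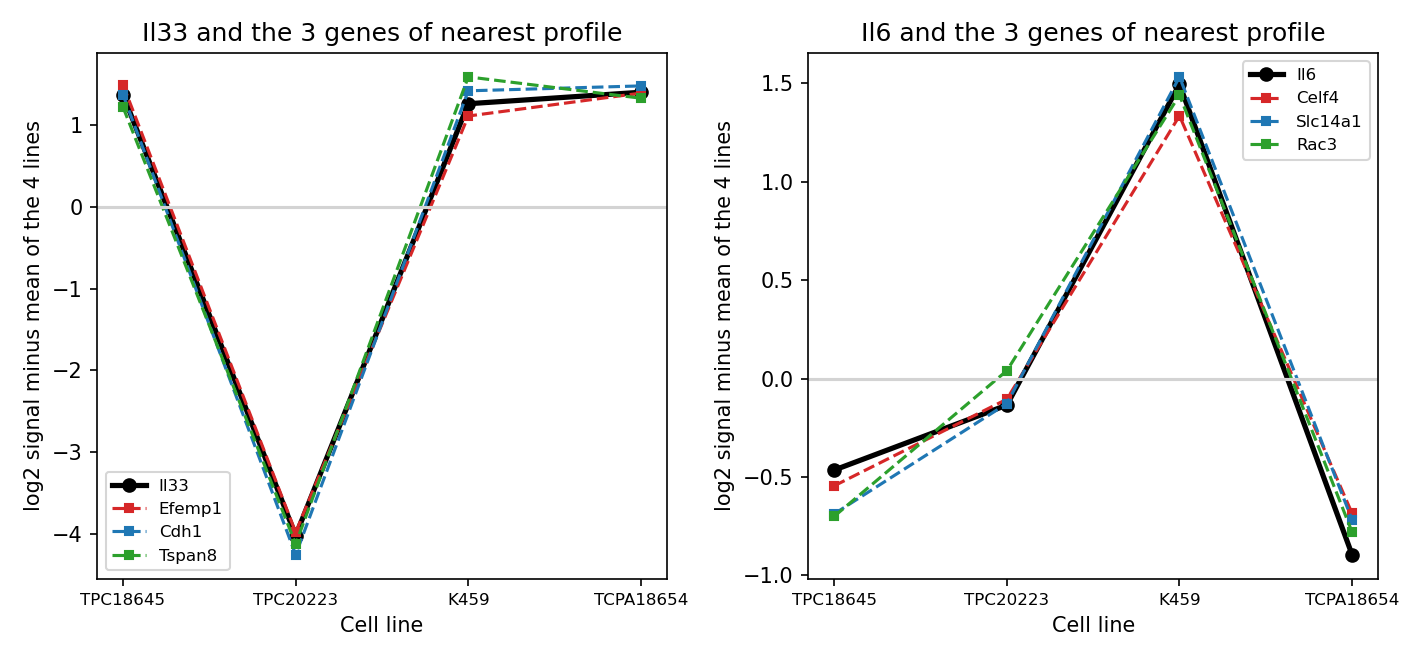
Log2 signal minus the mean over the 4 lines for Il33 (left) and Il6 (right, black), each with the 3 genes of nearest profile (dashed); lines join the cell lines for reading only, since these have no order. Il33, Efemp1, Cdh1 and Tspan8 are low in TPC20223, and Il6, Celf4, Slc14a1 and Rac3 are high in K459.

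Of 14 listed receptor chains, Il11ra1, Il1r1 and Il1rl1, chains of the receptors for IL-11, IL-1 and IL-33, were not measured. Of the 11 measured chains, 5 were dim. None was called by limma (adjusted p of 0.989 or more), 6 had a higher and 5 a lower mean in TPAC cells, and their median difference was 0.01. Il6st, which encodes gp130, had log2 signals of 11.73 in TPC18645 and 12.47 in TPC20223, and 11.09 in K459 and 11.60 in TCPA18654, a difference of -0.76 between TPAC and TPC. Lifr, the receptor chain of LIF, had 9.29, 10.44, 9.11 and 9.24 in the same order, a difference of -0.69. In both genes the TPC lines lay above the TPAC lines, with TPC20223 highest. Without TPC20223 the differences were -0.39 and -0.12. The lines of the genotypes did not overlap in 3 of the 11 chains, against 27.0% of all genes, a share near the background. Csf2rb was the other such chain, dim and higher in the TPAC lines. Lifr was thus highest in the line where Lif was lowest.

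Il6ra, the ligand-binding chain for IL-6, varied by 0.43 in all (8.17 to 8.60), with the lowest value in TPC20223. Il1rap, the shared accessory chain of IL-1 and IL-33 receptors, had 7.17, 7.85, 7.37 and 7.01. The chains of the IL-18 receptor were highest in TPC18645, with 5.96, 5.04, 5.24 and 5.87 for Il18r1 and 7.60, 5.97, 6.30 and 6.99 for Il18rap, both dim in the mean. Csf1r, the receptor of CSF1 on macrophages, was dim in each line (6.41 to 6.71), whereas Csf1 itself was not. The GM-CSF receptor chain Csf2ra had 8.90, 9.66, 9.36 and 8.90, and its partner Csf2rb was dim (6.04 to 6.19). Crlf2, the TSLP receptor chain, had 7.68 to 8.05, and its partner Il7r was dim (4.36 to 4.56). TPC20223 and TPC18645 differed at least 2-fold in 2 of the 11 chains, Lifr and Il18rap, against 11.3% of all genes.

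**Figure D4:**
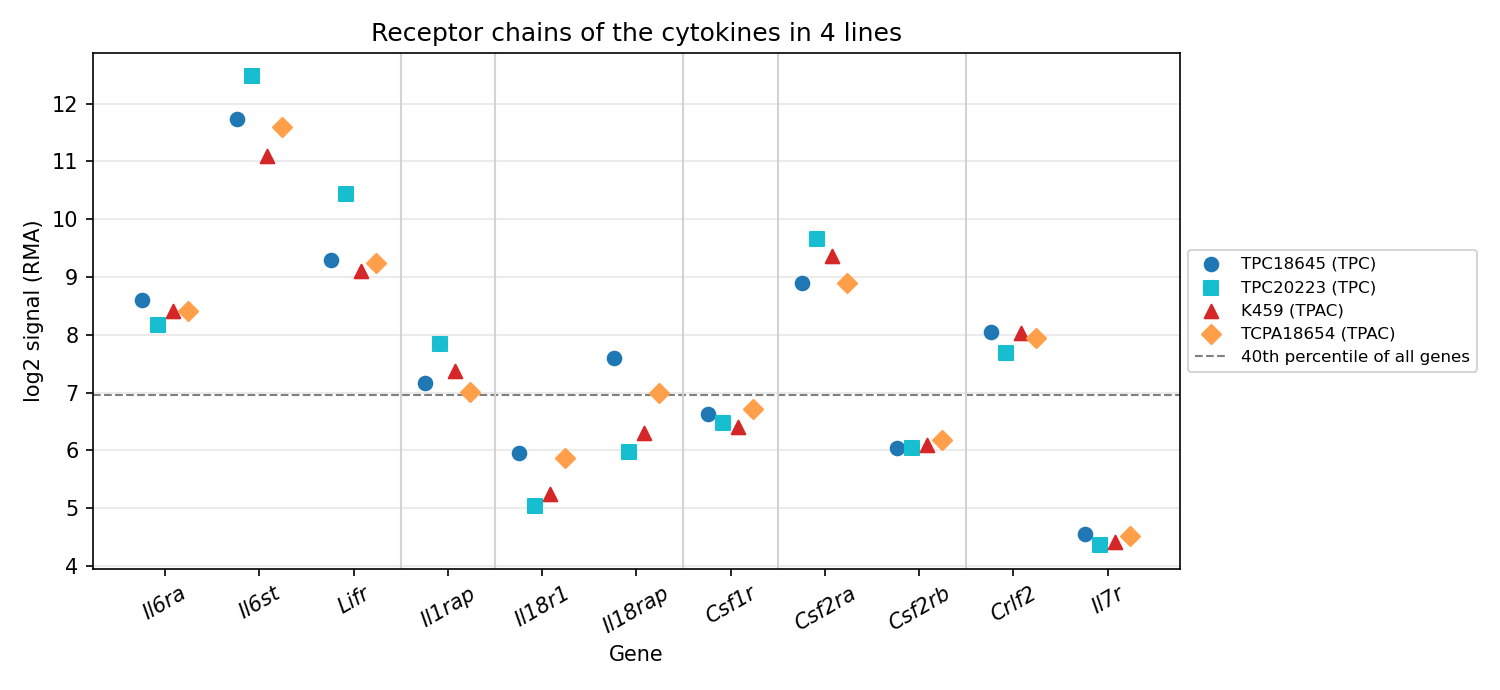
Log2 signal of each measured receptor chain in each line (points, 1 array per line), grouped by ligand; the dashed line is the 40th percentile of mean signal. Il6st and Lifr are highest in TPC20223, at 12.47 and 10.44, and Csf1r, Csf2rb and Il7r lie under the dashed line in all lines.

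Other ligands of these families were measured for 14 of 19 listed genes, and 8 were dim. None was called, 8 had a higher and 6 a lower mean in TPAC cells, and the median difference was 0.08. The stem cell factor gene Kitl, which had the smallest p, had 9.41, 9.43, 10.14 and 9.58 (difference 0.44, or 0.16 without K459), the eosinophil growth factor gene Il5 differed by -0.26 on dim signals and the cardiotrophin gene Ctf1 by -0.20. Without TPC18645 these were -0.08 and -0.10. Il34, the other ligand of the CSF1 receptor, had 7.33 in TPC18645 and 7.35 in TPC20223, and 8.43 in K459 and 7.33 in TCPA18654, so K459 alone stood apart. TPC20223 differed at least 2-fold from TPC18645 in Il7 (1.29) and Il15 (-1.22), both dim, which is 2 of 14 genes against 11.3% of all genes. Il34, Il7 and Il15 were chosen after their values were seen.

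Of the antagonists and processing genes of the interleukin-1 family, 14 of 15 were measured, 7 with a higher and 7 with a lower mean in TPAC cells, and none was called (median difference 0.03). Il1rn, the secreted receptor antagonist that blocks IL-1 alpha and beta, had log2 signals of 9.82 in TPC18645 and 9.55 in TPC20223, and 11.38 in K459 and 10.24 in TCPA18654. Both TPAC lines were higher than both TPC lines, by 1.12 in the mean (95% confidence interval -0.15 to 2.40, limma adjusted p = 0.989), and by 0.56 without K459. The lines of the genotypes did not overlap in 5 of the 14 genes, against 27.0% of all genes. The inflammasome adaptor Pycard differed by 0.28 on dim signals and Casp8 by 0.34, and without TPC20223 by 0.14 and 0.11. Between the TPC lines 5 of the 14 genes differed at least 2-fold, against 11.3% of all genes: Casp1 (2.37), the caspase that cleaves the IL-1 beta and IL-18 precursors, was higher in TPC20223, and the inflammasome sensor Nlrc4 (-2.27), the pore-forming Gsdmd (-1.17), the inhibitory receptor Sigirr (-1.06) and the protease Capn1 (-1.02) were lower. These 5 were chosen after their values were seen. Casp1 and Nlrc4 were dim in the mean, so both differences are inexact in size, and Casp1 had 4.69, 7.06, 4.49 and 5.01.

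In the list of IL-1 and NF-κB signalling, 16 of 18 genes were measured, 10 with a higher and 6 with a lower mean in TPAC cells, none called (median difference 0.05). The kinase gene Map3k7 differed by -0.36, the ubiquitin ligase gene Traf6 by 0.35 and Nfkbiz, an NF-κB cofactor induced by IL-1, by 0.97. Nfkbiz had 9.80, 7.66, 9.61 and 9.79, so its difference came from TPC20223 and was -0.10 without that line. Map3k7 and Traf6 were -0.14 and 0.07 without it. Tnfaip3, which encodes the NF-κB inhibitor A20 and was chosen after its values were seen, had 10.65 in TPC18645 and 7.50 in TPC20223, and 8.80 in K459 and 10.57 in TCPA18654.

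In the JAK-STAT list 18 of 19 genes were measured, 9 with a higher and 9 with a lower mean, none called (median difference -0.03). Stat5a, Stat5b and Stat3 differed by -0.55, -0.25 and -0.38. Stat3 was -0.15 without TPC20223 and Stat5a -0.27 without K459. Stat3, the main transducer of gp130, had 11.02, 11.48, 10.85 and 10.90, highest in TPC20223 like Il6st and Lifr. Between the TPC lines 6 of the 18 differed at least 2-fold, against 11.3% of all genes, and all 6 were lower in TPC20223: Stat6 (-1.78), Junb (-1.66), Cebpd (-1.35), Pim1 (-1.20), Bcl3 (-1.14) and Jak2 (-1.02). Socs3, the feedback inhibitor of gp130 signalling, had 9.06, 9.68, 9.37 and 8.74, and Socs2 had 10.47 in K459 against 8.78 to 9.59 elsewhere. These 8 genes were chosen after their values were seen.

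All 10 genes listed as regulators of cytokine mRNA decay were measured, 8 with a higher and 2 with a lower mean in TPAC cells, none called (median difference 0.17). The list includes Tnfaip3, the NF-κB inhibitor gene given above, which is thus counted in both lists. The 8 genes with a higher mean and the median of 0.17 therefore include a gene named here for NF-κB inhibition, not for mRNA decay. Zfp36, which encodes tristetraprolin and binds AU-rich cytokine transcripts, had 9.69, 7.77, 9.76 and 9.46 (difference 0.88). Zc3h12a, the regnase-1 gene whose product degrades Il6 transcripts, had 8.86, 7.82, 8.93 and 8.72 (difference 0.49), and Hnrnpd differed by 0.38. Zfp36 and Zc3h12a were lowest in TPC20223, and their differences were -0.08 and -0.035 without that line, where that of Hnrnpd was 0.15.

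**Figure D5:**
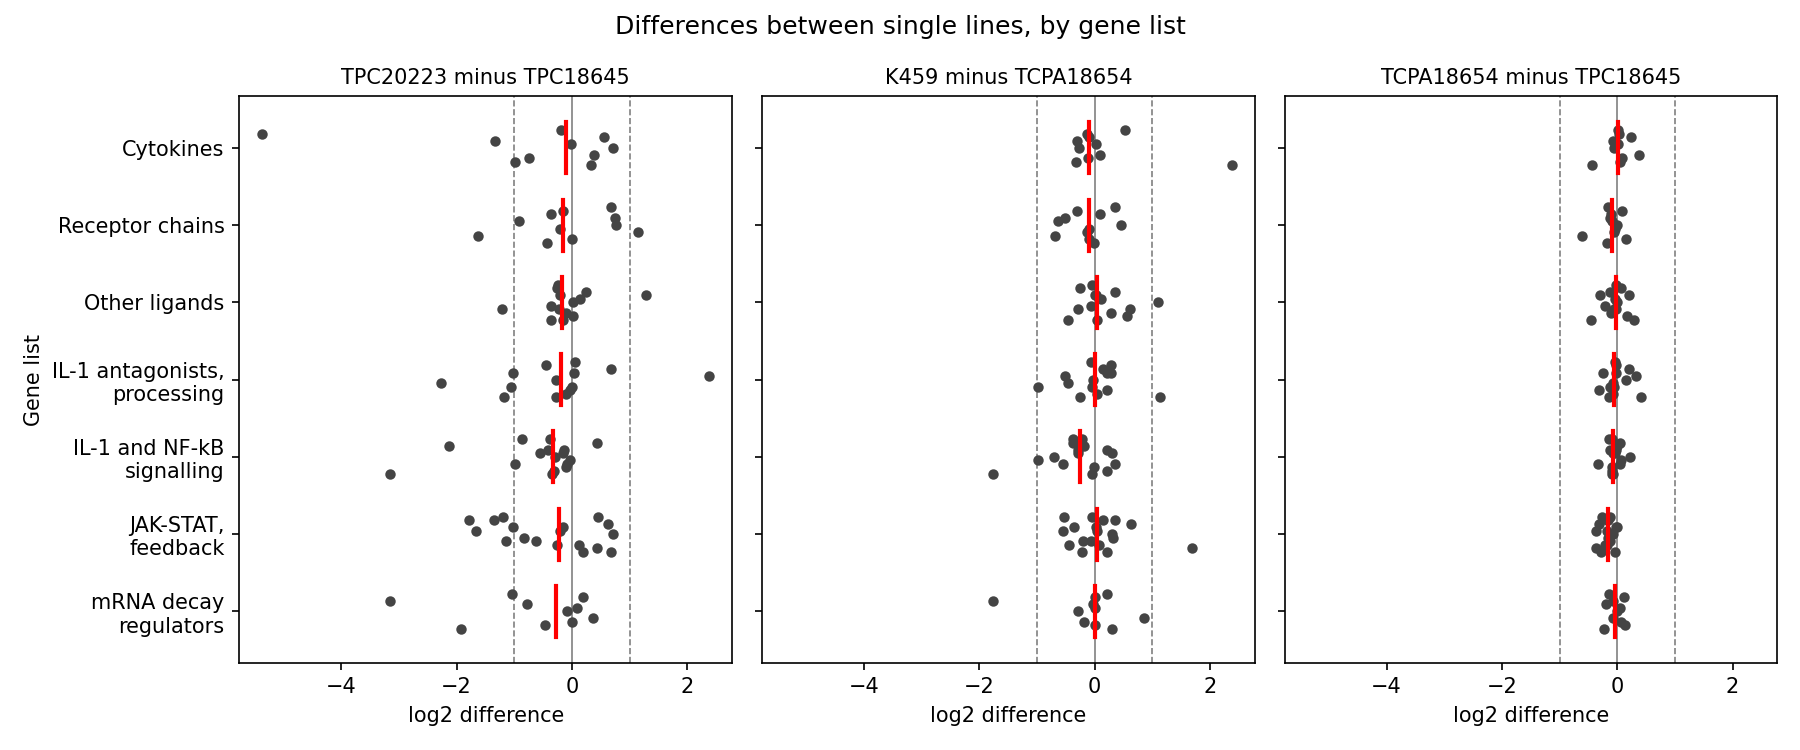
Log2 difference between single lines for the measured genes of each list (points) and the list's median (red), for the 2 TPC lines (left), the 2 TPAC lines (middle) and TCPA18654 against TPC18645 (right). Dashed lines mark a 2-fold difference, which no gene of these lists passes between TCPA18654 and TPC18645, while Il33 lies at -5.38 between the TPC lines.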

How the data were processed

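RNA of 4 cell lines (2 TPC, 2 TPAC) was measured on 1 array each. The authors deposited log2 signals after RMA (Affymetrix Expression Console 1.4, named in the submitters' processing notes). Genome build and filters are not given in the sources used here. RMA makes the distribution of signals nearly equal between arrays, which hides any difference in total RNA, and precision is limited by having 4 arrays. The platform lists 28941 transcript clusters. Those with 1 gene symbol numbered 21789, and 21698 were found by Entrez number in RefSeq (GRCm38.p6). The brightest cluster stood for each gene (19938 genes, no filter). The genotypes were compared in R 4.3.3 with limma 3.58.1, a linear fit with moderated variances (two-sided, Benjamini-Hochberg over all genes). The size of its estimates was first checked on differences planted in simulated data. That check set no requirement on the genes called. The limits of a call are those the study states for another contrast. Members and lists were chosen with earlier results of these data known. Named genes were all members and receptor chains, the 3 genes of smallest p in each other list, and the 3 nearest profiles of members ranging over 2 or more; others are marked as chosen later. Alternatives were a common median, cyclic loess, the mean of clusters, leaving out dim genes, an intensity trend, the methods' t-test and leaving out each line.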

Additional observations from a re-analysis of the deposited data

How the results depend on the processing

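In the TPAC and TPC comparison 0 genes and 0 members were called by limma, or by the methods' t-test after adjustment, under every alternative that adjusts p, against 84 genes and 0 members at an unadjusted p under 0.05 with the log2 limit. The median difference of the members ran from 0.0225 to 0.45 with 1 line left out, lowest without TPC20223. With 1 line left out the difference changed sign for 5 members, over -0.60 to 1.80 for Il6, -0.23 to 1.11 for Lif, -0.04 to 5.34 for Il33, -0.13 to 0.86 for Csf2 and -0.38 to 0.18 for Tslp: without K459 for Il6 and without TPC20223 for the others. Of the other named genes it ran over -0.19 to 0.25 for Il6ra, -0.66 to 0.02 for Il1rap, -0.41 to 0.52 for Il18r1, -0.96 to 0.68 for Il18rap and -0.14 to 0.16 for Csf1r, and over -0.53 to 0.23 for Csf2ra, -0.065 to 0.31 for Crlf2, -0.09 to 0.11 for Il7r, -0.10 to 2.04 for Nfkbiz, -0.08 to 1.84 for Zfp36 and -0.035 to 1.01 for Zc3h12a. Csf1r was -0.032 with cyclic loess, and the cause was not tested. Without dim genes, 0 members differed at least 2-fold between K459 and TCPA18654 or TPC18645, because Il6 is left out. TCPA18654 and TPC20223 then differed in 2 members, as with cyclic loess, K459 and TPC20223 in 2, and with a common median the TPC lines differed in 3. No paired analysis was possible because the labels give no replicate numbers shared by the genotypes.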

Other observations

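The genes next to Il33 on the chromosome were looked up in the RefSeq gene order after its values were seen. Of the 3 protein-coding genes listed on each side, Mlana, 9930021J03Rik and Ranbp6 on one side had log2 signals of 7.11, 9.65 and 8.24 in TPC18645 and 6.95, 9.05 and 7.12 in TPC20223. On the other side Trpd52l3, Uhrf2 and Gldc had 6.28, 10.63 and 8.53 in TPC18645 and 6.10, 9.67 and 6.86 in TPC20223. All 6 were lower in TPC20223 than in TPC18645, by less than Il33 was, but Mlana was lower still in K459 (6.91), and Trpd52l3 had 6.14 there. Trpd52l3 was under the dim limit in every line, and the median difference of all genes between these lines was -0.05. Neighbors of other members differed too, such as Plet1 near Il18 (10.87 in TPC18645, 6.91 in TPC20223) and Sirpa near Il1a (7.12 and 10.79). A cause was not tested. Lif lies next to Osm, another gp130 cytokine gene, whose signals were dim at 5.74, 5.59, 5.56 and 6.03 in TPC18645, TPC20223, K459 and TCPA18654. Il3, next to Csf2, was dim at 4.44, 4.07, 4.16 and 4.23.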
